A study of Mus musculus with 6 samples.

Results

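The genes described here encode the nuclear subunits of respiratory complexes III and IV and of ATP synthase, measured by RNA sequencing in microglia, the resident macrophages of the brain. Members were all genes of the count table whose symbol begins with Uqcr, with Cox4 to Cox8 or with Atp5, leaving out names of pseudogene copies, together with Cyc1. The rule gave 44 of 48587 genes, of which 9 belong to complex III, 18 to complex IV and 17 to ATP synthase. It used names and no measured value. Of these 44 genes, 40 had a read in at least 1 sample and 38 had enough reads to be tested, namely all 9 of complex III, 12 of complex IV and all 17 of ATP synthase. Cox7a2l, Atp5s (factor B) and Atp5sl carry such names without being subunits, and were counted with the complex of their name. Cox7a2l has been linked to supercomplexes of complexes III and IV, which were not measured here.

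All mice were of the C57BL/6 strain and at postnatal day 42 (P42). One group was wild type (WT) and the other was a knockout (KO) of Lyl1, which encodes a bHLH transcription factor known from blood stem and progenitor cells, with 3 samples per genotype. No other allele and no treatment is labelled, and the labels do not say how the knockout was made or in which cells it acts. Each library came from about 1000 sorted cells. Whether the samples of a group are separate animals is not labelled, so p-values speak only of the spread among these libraries, part of which may be technical.

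Respiratory complexes sit in the inner mitochondrial membrane. Complex III passes electrons from ubiquinol to cytochrome c, complex IV passes them from cytochrome c to oxygen, and both build the proton gradient that ATP synthase uses to make ATP. Complexes III and IV and ATP synthase each combine a few subunits encoded by mitochondrial DNA with many encoded in the nucleus, and several nuclear subunits exist as tissue-specific isoforms. Microglia use both glycolysis and oxidative phosphorylation.

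Total counts ranged from 12753945 to 27378614 reads per sample, and 12827 to 15652 genes were detected. Lyl1 itself was at 60.2, 55.6 and 40.0 CPM (read counts scaled to a common library total, with library totals adjusted by the trimmed mean of M values, TMM) in wild-type samples 1 to 3 and at 9.03, 12.0 and 14.3 CPM in knockout samples 1 to 3, in the direction of the labels. The microglial markers P2ry12 (6468 to 8910 CPM) and Csf1r (10591 to 12010 CPM) were high in every sample, and 6 microglial markers summed to 44947 to 48041 CPM in wild type and 43735 to 47096 CPM in knockout. Genes dropped out unevenly: among the 3594 genes with a mean of 50 CPM or more, 9.27%, 7.35% and 0.167% lay below 10% of their own median in wild-type samples 1 to 3, against 2.03%, 1.503% and 0.111% in knockout samples 1 to 3. Over all 10394 tested genes the shares were 28.1%, 28.0% and 2.68% in wild type against 14.0%, 12.6% and 1.82% in knockout. Sex is not labelled. The female-expressed transcript Xist reached 349 and 412 CPM in samples 1 and 3 of the knockout but 0.203 to 1.41 CPM in the other 4 libraries. The Y-linked Kdm5d was at 7.14, 155 and 15.5 CPM in wild type and 0.0881, 19.6 and 0.0696 CPM in knockout samples 1 to 3. By both genes 2 knockout samples differ from all wild-type samples, so sex appears unbalanced between the genotypes. Summed markers of other cells also varied. The 5 erythroid markers gave 0.159 to 1.23 CPM in wild type and 227, 65.2 and 0.243 CPM in knockout samples 1 to 3, the 6 border macrophage markers gave 0.437 to 95.8 CPM against 0.356 to 10.2 CPM, and the 6 oligodendrocyte markers gave 47.4 to 379 CPM against 109 to 215 CPM. The 6 astrocyte markers gave 176 to 410 CPM against 170 to 258 CPM with Gfap and Aldh1l1 at 0 reads in every sample, the 5 endothelial markers gave 26.1 to 154 CPM against 27.2 to 61.6 CPM with Cldn5 at 0, and monocyte, neutrophil and neuronal sums stayed at or below 7.62 CPM. The part of dropout, of Xist status and of these other markers in the values below was not tested.

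Most members of all 3 assemblies had lower mean levels in knockout, but no member passed the test across all genes. The summed level of complex IV did not overlap between genotypes, and this separation was not tested. Among single genes with a mean of 50 CPM or more, 8.38% had all knockout samples below all wild-type samples. Of the 38 tested members, 27 had a fitted log2 fold change (knockout over wild type) below 0 and 11 above 0, where 51.3% of all 10394 tested genes were below 0. The median over members was -0.36, against -0.03 over all tested genes. Without wild-type sample 2 it was -0.17, against 0.0993 over all genes, and it was -0.0913, against 0.0964, when only the 3 samples richest in detected genes were fitted. With edgeR's quasi-likelihood test and Benjamini-Hochberg adjustment, 0 members and 0 genes in all (0%) passed an adjusted p of 0.05, and the smallest adjusted p of a member was 0.9999. At an unadjusted p under 0.05, 3 members were lower (Cox7b, Cox7a2 and Atp5f1) and 0 were higher, where 1.67% of all tested genes were lower and 1.16% higher. DESeq2 and limma-voom also passed 0 members, where they passed 52 and 0 of all 10394 tested genes. All 3 knockout samples were below all 3 wild-type samples for 8 members, where 5.19% of all tested genes showed this, and all 3 were above for 0 members, where 5.97% did.

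Well-expressed genes as a whole leaned towards lower values in knockout. Among genes with a mean of 50 CPM or more, 59.6% were below 0 and 8.38% had all knockout samples below all wild-type samples. The same level holds 25 members, of which 21 were below 0 and 8 did not overlap, with a median log2 fold change of -0.43 against -0.16 over all genes at that level. These 25 members were 8 of complex III, 7 of complex IV and 10 of ATP synthase, with 6, 6 and 9 of them below 0.

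**Figure D1:**
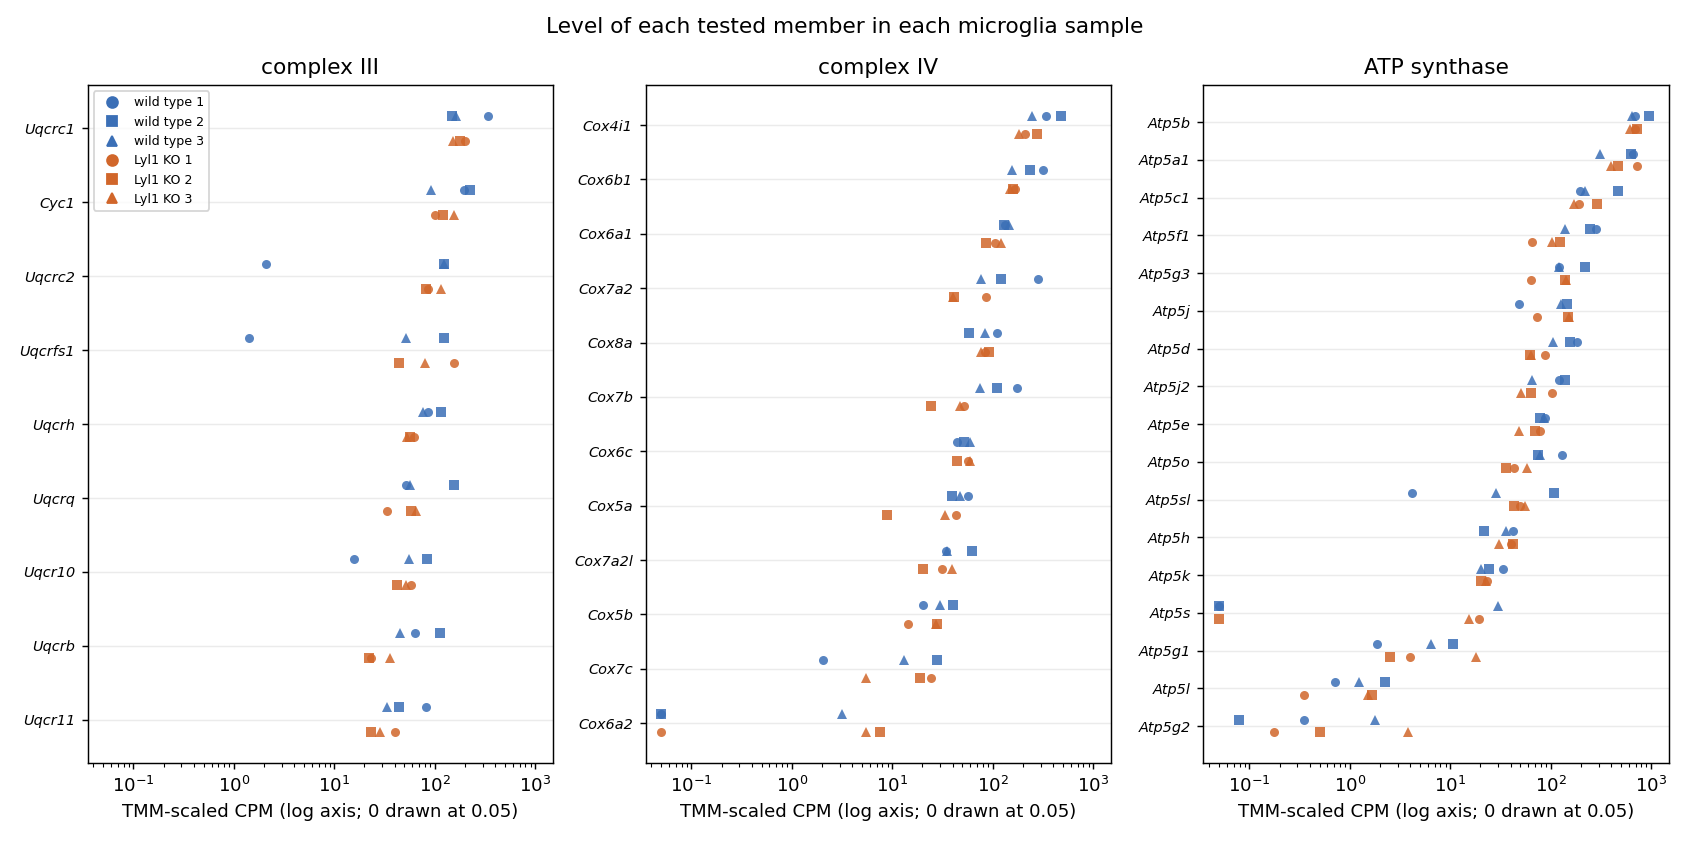
Level of each of the 38 tested members in each sample, in TMM-scaled CPM on a log axis, with wild type in blue, knockout in orange, and a symbol shape for each sample number. Within each complex, members run from the highest to the lowest mean level. Blue and orange symbols do not overlap for 8 members, and Uqcrc2 and Uqcrfs1 each have a single far lower value in wild-type sample 1.

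Summed over its members, complex IV was at 1521, 1351 and 978 CPM in wild-type samples 1 to 3 but 875, 805 and 798 CPM in knockout samples 1 to 3. Every knockout sample was below every wild-type sample, and the knockout mean was 64.4% of the wild-type mean (826 ± 42.7 against 1283 ± 278, SD, n = 3 each). This separation was present under TMM, DESeq2-type size factors (61.1%), upper-quartile scaling (72.2%) and library size alone (70.3%). It was also present with any 1 of the 18 members left out (61.9% to 68.5%). Cox4i2, Cox7b2, Cox8b and Cox8c had 0 reads, so leaving these out could not change the sums. Complex III was at 839, 1134 and 700 CPM in wild type and 759, 630 and 738 CPM in knockout, so the genotypes overlapped (891 ± 222 against 709 ± 69.3, 79.6%). ATP synthase was at 2609, 3275 and 2029 CPM in wild type and 2260, 2237 and 1957 CPM in knockout, also with overlap (2638 ± 623 against 2151 ± 169, 81.6%). Wild-type sample 3 was the lowest wild-type sample for each sum and, with knockout samples 2 and 3, is among the 3 samples with the most genes detected. In those 3 samples alone, knockout was at 97.7% of wild type for complex III, 82.0% for complex IV and 103% for ATP synthase. In the 4 samples with Xist under 10 CPM the values were 70.7%, 62.7% and 84.8%. The sums and the differences between the 3 complexes were not tested.

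**Figure D2:**
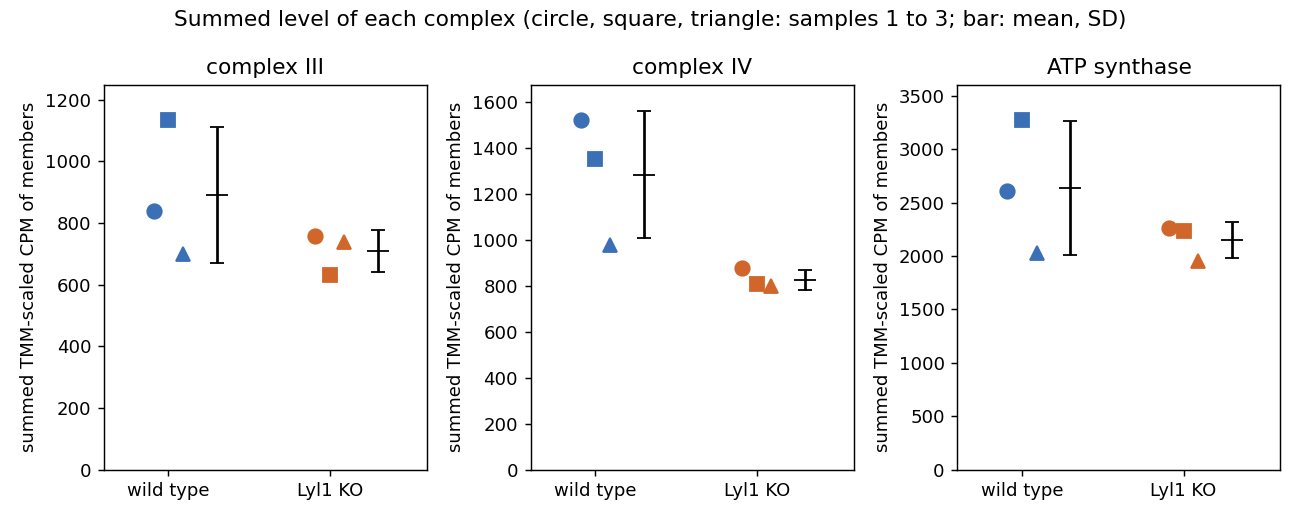
Summed TMM-scaled CPM of the members of each complex in each sample, with circle, square and triangle for samples 1 to 3 and a bar for the mean and SD of 3 samples. The complex IV panel shows the knockout samples at 798 to 875 CPM below the wild-type samples at 978 to 1521 CPM, while the other two panels overlap.

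In bulk samples a lower CPM cannot separate fewer transcripts per cell from a different mixture of cells. Per library, the median deviation of the 12 tested complex IV members from their wild-type means, on the log2(CPM + 1) scale, was -0.03, -0.02 and 0.02 in wild-type samples 1 to 3 and -0.43, -0.41 and -0.33 in knockout samples 1 to 3. Complex III spread over -0.12, 0.71 and -0.30 in wild type and -0.29, -0.38 and -0.25 in knockout. ATP synthase spread over -0.12, 0.30 and -0.21 in wild type and -0.34, -0.11 and -0.18 in knockout. These are medians over members that deviate in both directions, so close medians do not show close samples: the wild-type sums of complex IV above span 978 to 1521 CPM.

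Complex III. The 9 subunits had a median log2 fold change of -0.43, with 7 below 0 and 2 above 0, and 0 at an unadjusted p under 0.05. That median was -0.15 without wild-type sample 2, -0.72 without wild-type sample 3 and -0.22 with upper-quartile scaling. Its redox centres lie in cytochrome c1 (Cyc1), in the Rieske iron-sulfur protein (Uqcrfs1) and in the mitochondrially encoded cytochrome b, around which the large core proteins Uqcrc1 and Uqcrc2 and smaller supernumerary subunits are built.

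Uqcrb, a small subunit near the ubiquinone-binding region (chr13:66900617-66905378, minus strand, GRCm38), was at 63.6, 113 and 45.5 CPM in wild-type samples 1 to 3 but 23.2, 22.2 and 35.9 CPM in knockout samples 1 to 3. The genotypes did not overlap (74.2 ± 35.2 against 27.1 ± 7.64 CPM, SD, n = 3 each). The edgeR estimate was -1.46 on the log2 scale, with a standard error (SE) of 0.77 and an unadjusted p of 0.0966 (edgeR). Its exons overlap those of Gm10767 on the opposite strand, and 43.4% of its 50-base stretches also occur in transcripts of other genes. Uqcrh, the hinge protein that contacts cytochrome c1 (chr4:116066965-116075071, minus strand), was at 86.7, 116 and 76.3 CPM in wild type but 61.9, 56.6 and 53.3 CPM in knockout, again without overlap. Its log2 fold change was -0.70 (SE 0.53). For each of the 8 members without overlap, the exact 2-sided permutation test gave p = 0.1, the smallest that 3 against 3 samples allow.

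Cyc1 was at 194, 225 and 91.5 CPM in wild type and 101, 122 and 157 CPM in knockout, with wild-type sample 3 lowest of all, and its log2 fold change of -0.43 was -0.15 without wild-type sample 2 and -0.72 without wild-type sample 3. Uqcrq was at 52.0, 154 and 57.3 CPM against 33.2, 58.1 and 65.1 CPM, and Uqcr11 at 82.3, 43.8 and 33.7 CPM against 40.3, 23.3 and 28.8 CPM. A single wild-type sample stood high in each of these small subunits, and the log2 fold change went from -0.75 to -0.046 without sample 2 for Uqcrq and from -0.79 to -0.32 without sample 1 for Uqcr11. Uqcr10, also a small subunit, was at 15.8, 83.7 and 55.4 CPM against 57.9, 42.4 and 51.4 CPM. Here wild-type sample 1 was the low value.

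The core proteins and the Rieske protein differed in pattern. Uqcrc1 was at 341, 148 and 164 CPM in wild type and 201, 180 and 152 CPM in knockout, highest in wild-type sample 1. Read counts of Uqcrc2 were 24, 3150 and 2618 in wild type against 1931, 1604 and 3312 in knockout, and Uqcrfs1 had 16, 3148 and 1088 reads against 3547, 867 and 2295 reads. Wild-type sample 1 was thus at 2.11% and 2.14% of the 6-sample median for these transcripts. Without that sample the fitted log2 fold change of Uqcrc2 was -0.40 in place of 0.16. The exons of Uqcrc2 overlap those of Pdzd9.

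**Figure D3:**
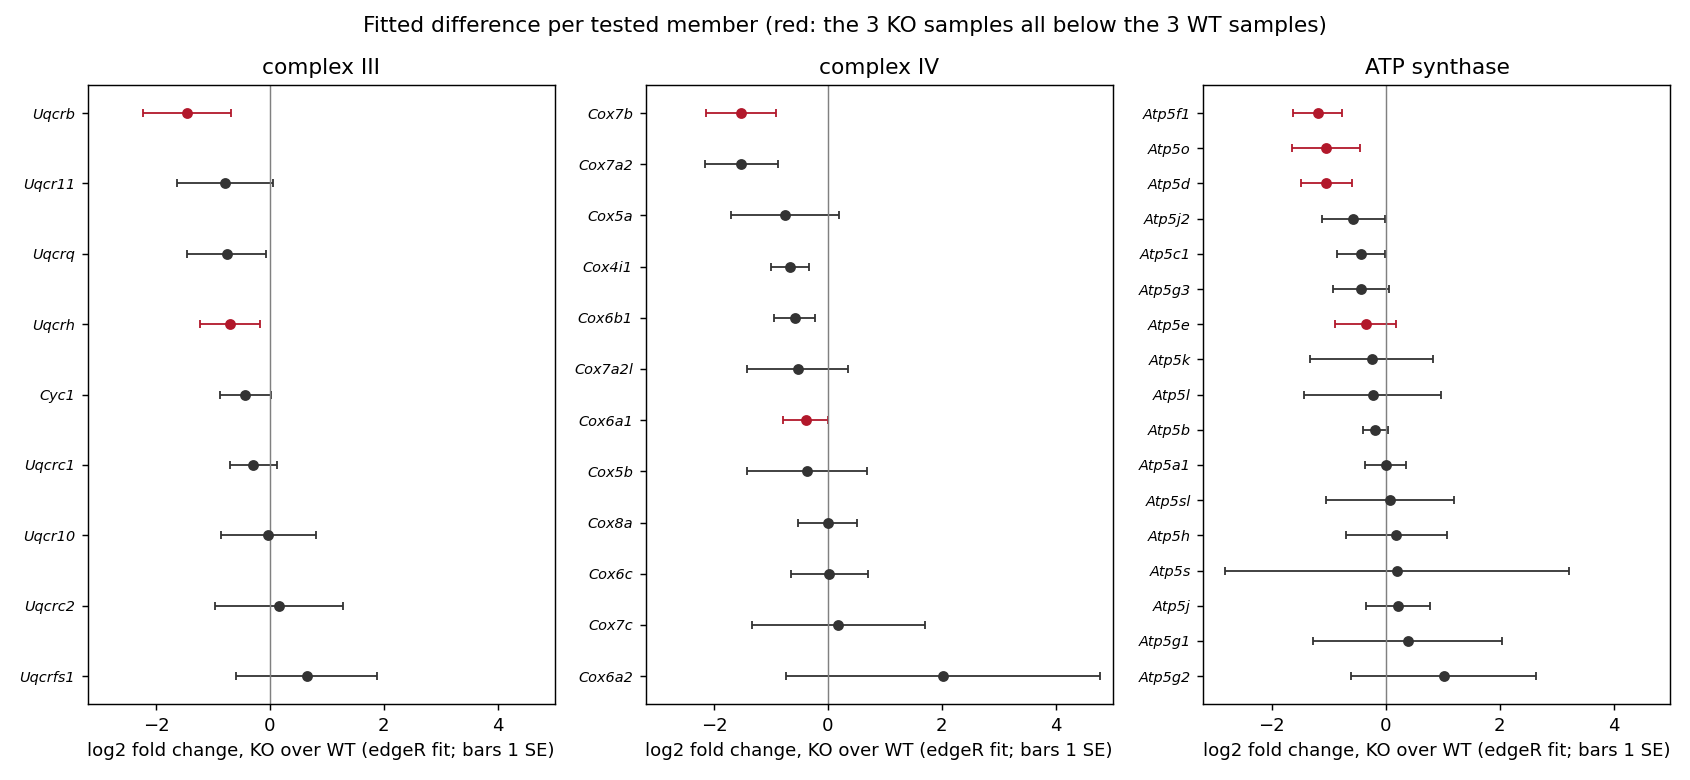
Fitted log2 fold change, knockout over wild type, for each tested member, with bars of 1 SE from the edgeR fit. Red marks the 8 members whose knockout samples all lie below the wild-type samples, and the lowest points are Cox7b and Cox7a2 at -1.53 and -1.52.

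Complex IV. The 12 tested members had a median log2 fold change of -0.46, with 9 below 0 and 3 above 0, and 2 at an unadjusted p under 0.05, both lower. Leaving out knockout sample 2 gave a median of -0.30. Its catalytic core is encoded by mitochondrial DNA, and the nuclear subunits surround that core and are needed for its assembly and regulation.

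Cox7b, a small transmembrane subunit encoded on the X chromosome (chrX:106015700-106022450, plus strand), was at 173, 109 and 75.0 CPM in wild-type samples 1 to 3 but 52.1, 24.1 and 47.7 CPM in knockout samples 1 to 3. Every knockout sample was lower, and the wild-type mean was 2.89 times the knockout mean (119 ± 49.7 against 41.3 ± 15.1 CPM, SD, n = 3 each). The log2 fold change was -1.53 (SE 0.62, unadjusted p = 0.0394 and adjusted p = 0.9999 by edgeR), and the edgeR p was above 0.05 in 5 of the 6 fits that left out a sample, all but the one without wild-type sample 3, reaching 0.1245 without wild-type sample 1. The knockout sample with low Xist had the lowest Cox7b level, and the pair with high Xist the others. Cox7a2, the COX7A isoform of most tissues (chr9:79755361-79759878, minus strand), was at 281, 122 and 77.1 CPM in wild type but 86.0, 41.4 and 40.7 CPM in knockout. Knockout sample 1 was above wild-type sample 3, so the genotypes overlapped (160 ± 107 against 56.0 ± 26.0 CPM, log2 fold change -1.52, SE 0.64, unadjusted p = 0.0461 by edgeR). No other annotated gene overlaps Cox7b or Cox7a2. For Cox7a2 the edgeR p was above 0.05 without wild-type sample 1 (0.2281), knockout sample 2 (0.1276) or knockout sample 3 (0.1317). The log2 fold change was then -0.82, -1.31 and -1.33, so that it was most reduced without wild-type sample 1.

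Cox6a1, the COX6A isoform of most tissues (chr5:115345642-115348981, minus strand), was at 131, 130 and 147 CPM in wild type and 105, 85.6 and 122 CPM in knockout. Its wild-type samples were close together and the genotypes did not overlap, with a log2 fold change of -0.39 (SE 0.39), or -0.25 without knockout sample 2. Cox4i1, the main isoform of the regulatory subunit COX4 (chr8:120668222-120674207, plus strand), was at 338, 474 and 248.6 CPM in wild type and 210, 275 and 185 CPM in knockout. Only knockout sample 2 lay above the lowest wild-type sample (log2 fold change -0.66, SE 0.33, unadjusted p = 0.0827 by edgeR). Without wild-type sample 2 the log2 fold change was -0.36 (unadjusted p of 0.3083 by edgeR), and without wild-type sample 3 it was -0.85 (unadjusted p of 0.0405 by edgeR). Its exons overlap those of Emc8 on the opposite strand. Cox6b1, a subunit on the intermembrane-space face, was at 320, 236 and 156 CPM in wild type and 167, 160 and 150 CPM in knockout. The knockout samples lay around the lowest wild-type sample, and the log2 fold change of -0.58 became -0.29 without wild-type sample 1.

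For the other tested subunits of complex IV the genotypes overlapped. Cox8a, the COX8 isoform of most tissues, was at 111, 58.2 and 83.8 CPM in wild type and 84.0, 91.5 and 77.0 CPM in knockout, with equal means of 84.2 CPM. Cox6c was at 44.6 to 60.1 CPM in wild type and 43.7 to 59.1 CPM in knockout, likewise with full overlap. Cox5a ranged from 39.2 to 57.3 CPM in wild type and from 8.94 to 43.5 CPM in knockout, and Cox5b from 20.4 to 39.9 CPM and from 14.2 to 28.2 CPM. Cox7c ranged from 2.03 to 27.8 CPM in wild type and from 5.53 to 24.3 CPM in knockout. Cox7a2l, counted here by its name, was at 34.6, 62.0 and 34.9 CPM in wild type and 31.4, 20.2 and 39.6 CPM in knockout.

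The isoforms known from muscle, testis or other tissues were at or near 0. Cox4i2, Cox7b2, Cox8b and Cox8c had 0 reads in all 6 samples, where a count of 0 allows up to 3 reads, or 0.104 to 0.264 CPM depending on the sample. This limit covers counting error only. Cox6b2 had 142 reads in knockout sample 3 and 0 elsewhere, and Cox7a1 had 88 and 38 reads in wild-type samples 1 and 3 and 0 in the other samples. Cox6a2 had 67 reads in wild-type sample 3, 149 and 159 reads in knockout samples 2 and 3, and 0 in the rest, and its exons overlap those of Itgad. Per kilobase of exon, Cox6a1 made up 91.6% to 100% of the COX6A pair, Cox7a2 95.4% to 100% of Cox7a1 and Cox7a2, and Cox6b1 97.9% to 100% of the COX6B pair across the 6 samples.

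ATP synthase. The 17 members had a median log2 fold change of -0.23, with 11 below 0 and 6 above 0, and 1 lower at an unadjusted p under 0.05. That median was -0.0178 without wild-type sample 2, -0.37 without wild-type sample 1 and -0.0771 with upper-quartile scaling. The F1 head, which makes ATP, is built of the alpha, beta, gamma, delta and epsilon subunits (Atp5a1, Atp5b, Atp5c1, Atp5d and Atp5e). A peripheral stalk (Atp5f1, Atp5h, Atp5j and Atp5o) holds the head still while the membrane ring of c subunits turns.

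All 5 F1 members had a log2 fold change below 0, with a median of -0.35, and they differed widely in size. Atp5b, the catalytic beta subunit, was at 694, 957 and 651 CPM in wild type and 687, 722 and 622 CPM in knockout, and Atp5a1, the alpha subunit, was at 663, 624 and 311 CPM against 729, 470 and 399 CPM. The genotypes overlapped for both of these highly expressed subunits, with log2 fold changes of -0.18 (SE 0.22) and -0.0014 (SE 0.36). Atp5c1, the gamma subunit, was at 198, 470 and 219 CPM against 192, 292 and 171 CPM, with wild-type sample 2 highest. Atp5d, the delta subunit of the central stalk (chr10:80138632-80145818, plus strand), was at 183, 155 and 105 CPM in wild type and 88.0, 62.2 and 64.3 CPM in knockout. Its genotypes did not overlap (147 ± 39.4 against 71.5 ± 14.3 CPM, log2 fold change -1.04, SE 0.45, unadjusted p = 0.0508 by edgeR), and its exons overlap those of Cbarp on the opposite strand. Atp5e, the epsilon subunit (chr2:174461072-174464105, minus strand), was at 87.2, 78.7 and 85.4 CPM against 78.1, 70.4 and 48.1 CPM. These groups did not overlap either, but knockout sample 1 was within 1 CPM of wild-type sample 2, and the log2 fold change of -0.35 became -0.17 without knockout sample 3.

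In the peripheral stalk, Atp5f1, the b subunit (chr3:105942698-105960099, minus strand), was at 280, 245 and 140 CPM in wild-type samples 1 to 3 but 64.8, 123 and 103 CPM in knockout samples 1 to 3. The genotypes did not overlap, and the wild-type mean was 2.29 times the knockout mean (221 ± 73.0 against 96.8 ± 29.5 CPM, SD, n = 3 each). The log2 fold change was -1.19 (SE 0.43, unadjusted p = 0.0258 and adjusted p = 0.9999 by edgeR), and the edgeR p was above 0.05 without wild-type sample 1 (0.07248) or 2 (0.0623), or knockout sample 1 (0.08942) or 3 (0.06673). Its exons overlap those of Wdr77 and Gm42890 on the opposite strand, so that reads of these genes cannot be told apart without strand, and 38.7% of its 50-base stretches occur in transcripts of other genes. Atp5o, the oligomycin sensitivity-conferring protein that links stalk and head (chr16:91925214-91931687, minus strand), was at 131, 74.4 and 78.7 CPM against 43.6, 36.1 and 57.6 CPM. It had no overlap between genotypes and a log2 fold change of -1.05 (SE 0.60), while its symbol has 2 entries in the annotation, its exons overlap antisense transcripts and 50.3% of its 50-base stretches occur in other genes. The other stalk subunits, Atp5h (21.8 to 42.2 CPM in wild type, 30.9 to 41.98 CPM in knockout) and Atp5j (48.3 to 147 CPM against 73.1 to 152 CPM), overlapped, with knockout means above wild-type means.

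Of the remaining membrane subunits, Atp5j2 was at 122, 138 and 65.6 CPM in wild type and 104, 64.0 and 51.1 CPM in knockout, and Atp5k at 20.3 to 33.8 CPM against 20.4 to 23.1 CPM. The c subunit of the ring is encoded by 3 genes that differ in their import sequences. Atp5g3 was at 121, 220 and 120 CPM in wild type and 63.3, 138 and 141 CPM in knockout, whereas Atp5g1 was at 1.85, 10.6 and 6.49 CPM against 3.96, 2.49 and 18.2 CPM, and Atp5g2 at 0.353, 0.0795 and 1.76 CPM against 0.176, 0.508 and 3.79 CPM. Per kilobase of exon, Atp5g3 held 91.6% to 98.9% of the 3 in every sample. Atp5l, the g subunit, was at 0.352 to 2.22 CPM, the lowest level per kilobase of all annotated exons among the tested members. By coding length it was above Atp5g1 and Atp5g2 (2.37, 1.54 and 1.48 CPM per kb). For this gene, 84.8% of the 50-base stretches of its coding transcript occur in other genes as well, 68.5% in pseudogenes, and how the counting treated reads that match several places is not stated. The part of this in the low level was not tested. Atp5s had 632 reads in wild-type sample 3, 437 and 442 reads in knockout samples 1 and 3, and 0 in the other samples. Atp5sl was at 4.14, 107 and 28.7 CPM in wild type and 49.0, 43.0 and 55.9 CPM in knockout.

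**Figure D4:**
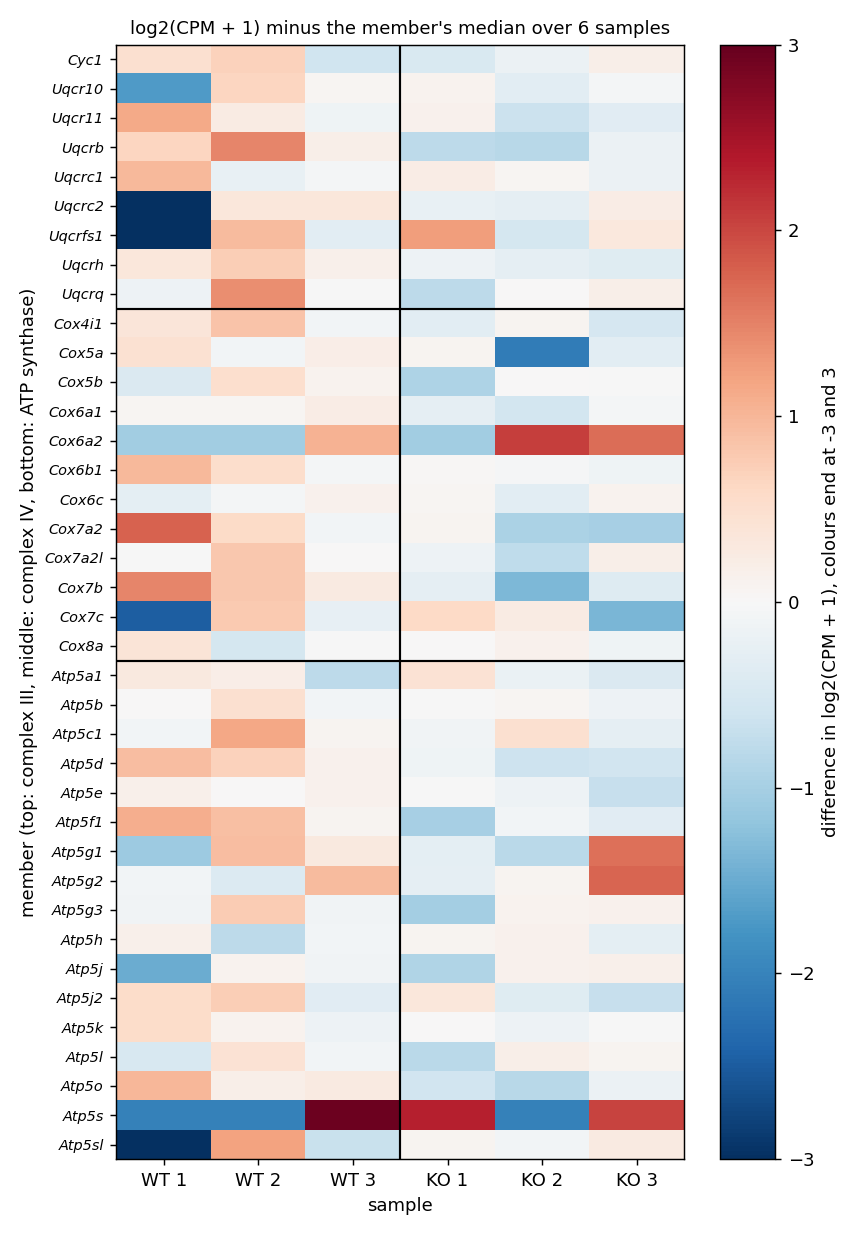
Each tested member's log2(CPM + 1) minus its median over the 6 samples, by sample, with colours ending at -3 and 3. The vertical line parts wild type from knockout, and the darkest blue cells are Uqcrc2, Uqcrfs1 and Atp5sl in wild-type sample 1.

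Levels can be compared between members only per length. Per kilobase of annotated exon, averaged over the 6 samples, the highest were Cox6b1 (280 CPM per kb), Cox4i1 (186), Cox6a1 (171), Atp5b (170) and Atp5a1 (170). In complex III the highest were Uqcr10 (87.5 CPM per kb) and Cyc1 (68.8). With the length of the longest coding transcript in place of all exons, the same 5 genes led in another order, with Cox4i1 and Atp5b both at 377 CPM per kb, Cox6b1 at 321 and Cox6a1 at 210. The leading transcripts of complex IV and of the F1 head thus stood above those of complex III on both scales.

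Other genes of oxidative phosphorylation were read from the same fit. The counts of each list stand beside shares of all tested genes. These were 51.3% below 0, 5.19% lower without overlap and 5.97% higher without overlap. The share of lower genes within the unadjusted 0.05 limit of edgeR was 1.67%. Among genes with a mean of 50 CPM or more, 59.6% lay below 0 and 8.38% were lower without overlap. Whether a list departs from these shares was not tested. Of 36 complex I subunits, 31 were below 0 and 5 above, with a median log2 fold change of -0.54, 1 at an unadjusted p under 0.05 (Ndufc1, an accessory subunit, at 57.7, 92.4 and 20.6 CPM in wild type and 5.50, 12.2 and 8.59 CPM in knockout) and 6 lower without overlap. Of the 4 subunits of complex II, which has no mitochondrially encoded part, 1 was below 0 (Sdhd, without overlap) and 3 above, with a median of 0.16. Among 7 electron carrier and partner genes, 6 were below 0, and 2010107E04Rik, which encodes a small protein of ATP synthase, was at 140, 173 and 54.5 CPM in wild type and 54.0, 28.7 and 48.5 CPM in knockout. Of the complex III assembly factors 5 of 6 could be tested, 3 below 0 and 2 above, with Ttc19 and Uqcc1 lower without overlap. Of the complex IV assembly factors 22 of 24 could be tested, 15 below 0 and 7 above, with 1 lower and 2 higher without overlap. The same shares of 5.19% and 5.97% apply to the complex IV factors, whose genes are given as values only. The lower gene was Coa3, which acts in the synthesis of the COX1 subunit, at 110, 99.5 and 51.7 CPM in wild type and 31.8, 42.4 and 49.2 CPM in knockout. The higher genes were Cox18, an insertase for the COX2 subunit, with 1, 0 and 16 reads in wild type and 351, 285 and 184 reads in knockout, and Lrpprc, which stabilises mitochondrial messenger RNA, with 9, 6 and 592 reads against 821, 1821 and 1971 reads. All of these stayed above an adjusted p of 0.05 in the edgeR test. Of the 4 assembly factors of ATP synthase, 3 were below 0, and Atpaf2, a chaperone of the alpha subunit, was at 83.3, 41.99 and 48.5 CPM against 0.220, 0.102 and 10.3 CPM.

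Of the mitochondrially encoded subunits of these complexes, the table holds reads for 2 of 6. mt-Cytb, cytochrome b of complex III, was at 2136, 665 and 615 CPM in wild type and 556, 884 and 544 CPM in knockout, with wild-type sample 1 far above the rest. mt-Co1, the catalytic subunit of complex IV, was at 422, 159 and 262 CPM against 289, 392 and 237 CPM, with full overlap. mt-Co2, mt-Co3, mt-Atp6 and mt-Atp8 had 0 reads in every sample, so the nuclear values could not be set beside them. Of 12 transcriptional regulators of respiratory genes, 10 could be tested, 4 below 0 and 6 above. Nrf1, an activator of many of these genes, was at 24.4, 37.3 and 43.6 CPM in wild type and 49.4, 50.7 and 53.7 CPM in knockout, without overlap (log2 fold change 0.55, SE 0.78). Gabpa, the DNA-binding part of an activator of the same genes, was at 0.176, 32.0 and 42.3 CPM against 64.3, 43.4 and 59.3 CPM, and it overlaps an exon of Atp5j on the opposite strand.

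Promoter sequences of 34 of the 44 members, 3 of them under an older symbol, were found in RefSeq's table for GRCm38.p6, as the 250 bases before and 50 after the start of each gene. They were searched on both strands for the NRF1 core GCATGCGC, the ETS site CCGGAAGT bound by GABPA, the YY1 site AAGATGGCG and the TATA box TATAAA. Some genes have more than 1 promoter, and a gene counted once if any of its promoters held the motif. The NRF1 core was in 6 of 34 members (17.6%) and in 3.05% of all 27025 genes with promoters of that length, the ETS site in 4 (11.8%, against 4.31%), the YY1 site in 3 (8.82%, against 1.64%) and the TATA box in 3 (8.82%, against 15.7%). The NRF1 core was in Atp5g2, Atp5k, Atp5l, Cox6a1, Uqcr11 and Uqcrc1. Of the 7 members without overlap that had promoter sequences, 1 held the NRF1 core (Cox6a1), 1 the ETS site (Uqcrh) and 0 the YY1 site or the TATA box. The 250 bases before the start of these carriers, and of Cox7b, the member with the lowest fitted log2 fold change, are shown to compare a promoter with each site and one with none of the motifs. Capitals mark the motif match, with GCGCATGCGC in Cox6a1 holding the NRF1 core on both strands.
Cox6a1 (chr5:115348959-115349208, minus strand): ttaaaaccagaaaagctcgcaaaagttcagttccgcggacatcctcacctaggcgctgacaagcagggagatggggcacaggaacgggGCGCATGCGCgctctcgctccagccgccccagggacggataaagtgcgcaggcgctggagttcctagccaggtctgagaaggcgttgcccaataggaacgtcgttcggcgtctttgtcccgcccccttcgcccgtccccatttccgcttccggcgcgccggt
Uqcrh (chr4:116075071-116075320, minus strand): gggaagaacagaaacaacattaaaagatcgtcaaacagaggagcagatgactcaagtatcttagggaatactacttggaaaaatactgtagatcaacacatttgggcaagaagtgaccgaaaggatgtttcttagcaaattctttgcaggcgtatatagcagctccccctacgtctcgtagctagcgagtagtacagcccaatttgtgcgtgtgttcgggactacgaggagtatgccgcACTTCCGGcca
Cox7b (chrX:106015450-106015699, plus strand): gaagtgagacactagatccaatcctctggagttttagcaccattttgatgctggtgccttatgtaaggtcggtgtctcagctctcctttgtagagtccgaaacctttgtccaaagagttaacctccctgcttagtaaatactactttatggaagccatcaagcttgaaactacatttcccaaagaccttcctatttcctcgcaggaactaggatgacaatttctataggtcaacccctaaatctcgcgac
A match describes letters in this window and is not evidence of binding. The remaining motif searches gave no match in these 3 windows.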

How the data were processed

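Polyadenylated RNA of about 1000 sorted microglia per sample was amplified with a SMARTer Ultra Low kit over 14 or 15 PCR cycles and sequenced as single reads of 50 cycles, per the labels' protocols. The authors deposited unnormalized read counts, by gene symbol. Tools listed in the submitters' processing notes, without role or order, are STAR 2.5.2b, featureCounts 1.5.1 of Subread, CASAVA 1.8.2 and limma 3.28.21, with build GRCm38. Annotation and strand setting: not given in the sources used here. PCR copies of a molecule count as separate reads. Library totals and fits exclude the 92 ERCC rows, and 6 rows named as pseudogene copies were left out of the members.

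Genes were filtered with filterByExpr (minimum count 10, minimum total 15) in edgeR 4.0.16 (R 4.3.3), which left 10394. Libraries were TMM-scaled and fitted by quasi-likelihood with genotype alone, with Benjamini-Hochberg adjustment at 0.05. The common biological coefficient of variation was 1.27. The script was tested on simulated data with less spread between samples than these data have. That test does not show what the fit can find at the spread seen here. Alternatives used DESeq2 1.42.0, limma 3.58.1 and left-out samples. The members and gene lists were chosen with earlier results of these data known. Positions and exon overlaps come from GENCODE M21 on GRCm38. The rule for named genes took members with the smallest p, the highest level per kilobase, no overlap between genotypes, and the isoform groups. Cox5a, Cox5b, Cox6c, Cox7c, Atp5h, Atp5j, Atp5k and others outside it are given by ranges or values so that every member is accounted for. Ndufc1, Sdhd, Ttc19, Uqcc1, Coa3, Cox18, Lrpprc, Atpaf2, Nrf1, Gabpa and 2010107E04Rik were chosen from the lists after their values were seen.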

Additional observations from a re-analysis of the deposited data

Results flagged for a closer look

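Reads appeared in parts of the table that no comparison used. The ERCC spike-in sequences, which the labels' protocols do not mention, had 66, 50 and 21 reads in wild-type samples 1 to 3 and 25, 21 and 25 reads in knockout samples 1 to 3. The rows of 6 pseudogene copies of members (of Uqcrh, Atp5k and Atp5l) had 15 and 4 reads in wild-type samples 2 and 3 and 5 reads in knockout sample 1. These counts exceed the 3 reads that a count of 0 allows.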

How the results depend on the processing

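The median log2 fold change stayed below 0 for complexes III and IV in all 15 alternatives, and for ATP synthase in all but the 3 samples with the most genes detected, where it was 0.0881. With 1 sample left out it ran from -0.72 to -0.15 for complex III and from -0.37 to -0.0178 for ATP synthase, and upper-quartile scaling gave -0.22 and -0.0771. For complex IV, at -0.46 in the analysis reported, it was -0.52 with DESeq2-type size factors and with DESeq2, -0.31 with upper-quartile scaling, -0.41 without a filter, -0.16 in the 3 samples with the most genes detected and -0.55 to -0.30 with 1 sample left out. In those 3 samples, which hold 1 wild-type sample, the summed level in knockout was 82.0% of wild type for complex IV and 103% for ATP synthase. Genes past an adjusted p of 0.05 numbered 8 of 22005 without a filter and 52 of 10394 with DESeq2, none of them members. With so few genes passing, 0 of 40 and 0 of 38 members do not set the members apart from other genes. The 3 members lower at an unadjusted p under 0.05 became 1 with upper-quartile scaling and 6 with DESeq2. Their number was 1 with the replicate block, 1 when Xist was a covariate, and 0 to 5 with 1 sample left out. It was 0 without wild-type sample 1 or knockout sample 3, and 5 without wild-type sample 3. All genes under that limit, in either direction, numbered 295 of 10394 in the analysis reported, 232 with upper-quartile scaling and 626 with DESeq2. They numbered 171 with the block, 359 with the Xist covariate and 1158 of 11061 without wild-type sample 3. The higher member counts thus came with higher counts over all genes, and a departure from these was not tested. Members below 0 numbered 24 to 32 in the other settings, 21 of 40 in the 3 samples with the most genes detected, and 11 of 13 among genes of 100 CPM or more. Complex IV members without overlap, 2 as reported, were 4 with upper-quartile scaling and 1 with library size alone. The share of all tested genes without overlap was counted with TMM only, so these 2 counts have no share beside them. The median of all tested genes was -0.03 with TMM, -0.09 with DESeq2-type size factors and 0.09 with upper-quartile scaling, and 51.3%, 53.5% and 46.1% of genes were below 0. The share was 43.7% with limma-voom and 44.3% with the block. With Xist as a covariate, 57.6% of all genes were below 0, with a median of -0.27. In that fit the medians of complex III, complex IV and ATP synthase were -0.50, -0.50 and -0.26. The ATP synthase median was thus not below that of all genes.

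Over 12 alternatives, 22 of the 38 members kept their sign, 20 lower and 2 higher. Upper-quartile scaling reversed Uqcr10 (0.0796), Atp5a1 (0.1777) and Cox8a (0.1347). The replicate block reversed Uqcr10 (0.2316), Atp5a1 (0.028) and Cox8a (0.0426). Fitting without a filter gave 0.058 for Atp5a1 and 0.0614 for Cox8a, limma-voom gave 0.0432 and 0.1505, and Cox6c turned to -0.0249 with DESeq2-type size factors and to -0.025 with DESeq2. With 1 sample left out, the log2 fold change ran from -0.69 to 0.0936 for Atp5c1, -0.45 to 1.6006 for Atp5sl, -0.40 to 0.58 for Uqcrc2, -0.55 to 0.30 for Atp5l, -0.48 to 0.20 for Uqcrc1, -0.28 to 0.0352 for Atp5b, -0.45 to 0.52 for Uqcr10 and -0.97 to 0.99 for Atp5g1. It ran from -0.0178 to 0.41 for Atp5h, -0.39 to 10.96 for Atp5s, -0.32 to 1.12 for Cox7c, -0.0606 to 0.17 for Cox6c, -1.09 to 2.81 for Atp5g2, -0.13 to 0.52 for Atp5j, -0.30 to 0.20 for Atp5a1 and -0.18 to 0.26 for Cox8a. The cause of these changes was not tested. Same-numbered samples of the 2 genotypes did not deviate together (correlations 0.0014, -0.0132 and -0.0403 over 6523 genes). With 3 samples per genotype and this spread, such values cannot exclude a shared day or batch. The replicate block pairs samples by number, the only link that the labels give. The summed levels, the members below 0 and the levels per kilobase had alternatives chosen after seeing the data. With the coding length, 22 of 40 levels per kilobase stayed within 1 SD. There were 3 samples per genotype, and the common biological coefficient of variation over all tested genes was 1.27. The parts of sample spread and of read depth in the precision of single members were not tested.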

Other observations

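The spread between samples differed between the assemblies. The median coefficient of variation of CPM over the tested members was 49.3% in wild type and 22.4% in knockout for complex III, 33.6% and 32.9% for complex IV, and 36.2% and 30.5% for ATP synthase, with 3 samples each. The difference in spread was not tested. Of the 9 complex III members, 2 were highest in wild-type sample 1 and 6 in wild-type sample 2. For the 12 tested complex IV members these numbers were 5 and 4, and for the 17 of ATP synthase 6 and 6.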
